A study of Mus musculus with 17 samples.

Results

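Bcl11b, Satb1 and Ikzf1 encode DNA-binding proteins that help T cells acquire and keep their identity. Their chromatin was followed here in mature mouse thymocytes with and without Tcf1 and Lef1. The members are all enriched intervals (islands) of 12 histone ChIP-seq libraries, and all Tcf1 binding peaks, that overlap 3 windows of the mm9 genome build: chr12:109140000-109260000 for Bcl11b, chr17:51865000-51990000 for Satb1 and chr11:11575000-11680000 for Ikzf1. This gave 149 islands of 346699 in the series, with 60 at Bcl11b, 40 at Satb1 and 49 at Ikzf1, and 12 Tcf1 peaks of 7807, with 7, 2 and 3 in the same order.

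The thymocytes formed 3 groups. WT CD8 cells came from wild-type control mice. DKO CD8 cells had the genotype Tcf1-/-Lef1-/-, with both factors removed by CD4-Cre, a recombinase that becomes active while thymocytes carry both CD4 and CD8, so earlier stages had Tcf1 and Lef1. WT CD4 cells were the wild-type helper-lineage counterpart. The sort gate was TCRbeta high, CD69– and CD24–, which selects mature cells. For the WT CD4 libraries the phenotype label reads CD8+, which goes against their titles and source names. They were used as CD4 cells, following the titles. Each group had 1 library for H3K4me3, H3K27ac, H3K9ac and H3K27me3. The Tcf1 peaks are from splenic TCRbeta high CD8+ cells of wild-type mice, with a library from Tcf1-/- cells (deleted by CD4-Cre) as the control, so they are from another tissue than the islands.

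Bcl11b is a zinc-finger factor that is needed for commitment to the T lineage and that keeps natural killer cell genes silent. Satb1 binds AT-rich DNA, organises chromatin loops in thymocytes and takes part in the choice between the CD4 and CD8 fates. Ikzf1 encodes Ikaros, a zinc-finger factor that partners with chromatin remodelling complexes throughout lymphoid development. Tcf1 and Lef1 bind DNA through a related domain and recognise sites with the core letters CTTTGA or CTTTGT. H3K4me3 marks active promoters, H3K27ac and H3K9ac mark active promoters and enhancers, and H3K27me3 marks chromatin held silent by Polycomb complexes.

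The promoters below show where these genes are transcribed from and whether they carry the core letters read by the deleted factors. They come from RefSeq on the GRCm38.p6 build, 250 bases before to 50 after a start site, on the coding strand, with CTTTGA and CTTTGT on either strand in capitals. The first is the only Bcl11b entry, the next 2 are starts of Satb1 that lie 0.643 kb and 21.1 kb downstream of its first listed start, and the last is the first start of Ikzf1.
Bcl11b, chr12:108003365-108003664, minus strand: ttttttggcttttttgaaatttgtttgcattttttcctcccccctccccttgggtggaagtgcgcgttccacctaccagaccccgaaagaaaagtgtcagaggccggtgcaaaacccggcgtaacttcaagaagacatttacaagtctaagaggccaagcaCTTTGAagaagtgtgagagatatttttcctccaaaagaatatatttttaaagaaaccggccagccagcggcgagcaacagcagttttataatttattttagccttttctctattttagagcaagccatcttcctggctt
Satb1, chr17:51832598-51832897, minus strand: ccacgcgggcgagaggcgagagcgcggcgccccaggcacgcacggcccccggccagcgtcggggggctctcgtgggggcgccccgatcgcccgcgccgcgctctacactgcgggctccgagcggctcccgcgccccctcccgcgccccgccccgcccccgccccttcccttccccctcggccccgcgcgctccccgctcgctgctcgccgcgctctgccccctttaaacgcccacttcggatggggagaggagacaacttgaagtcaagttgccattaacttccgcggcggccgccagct
Satb1, chr17:51812135-51812434, minus strand: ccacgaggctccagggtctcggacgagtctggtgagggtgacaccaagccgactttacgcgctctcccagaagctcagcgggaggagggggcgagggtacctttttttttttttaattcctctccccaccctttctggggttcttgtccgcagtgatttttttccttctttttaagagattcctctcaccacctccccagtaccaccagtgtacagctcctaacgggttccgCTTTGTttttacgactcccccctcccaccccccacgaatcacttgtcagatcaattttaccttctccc
Ikzf1, chr11:11685675-11685974, plus strand: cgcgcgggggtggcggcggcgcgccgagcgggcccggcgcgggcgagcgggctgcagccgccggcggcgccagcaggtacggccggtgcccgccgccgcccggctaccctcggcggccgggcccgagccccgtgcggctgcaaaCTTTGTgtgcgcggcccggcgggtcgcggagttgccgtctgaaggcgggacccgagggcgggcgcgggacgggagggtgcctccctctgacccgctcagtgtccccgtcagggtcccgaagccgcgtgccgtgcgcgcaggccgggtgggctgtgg

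The Bcl11b promoter holds 1 CTTTGA, the downstream Satb1 promoter 1 CTTTGT and the Ikzf1 promoter 1 CTTTGT, while the upstream Satb1 promoter holds neither. Not every listed start is printed. Of the rest, the first Satb1 start and the one 6.70 kb downstream of it hold neither. The Satb1 start at 21.2 kb and the Ikzf1 start at 4.25 kb hold 1 CTTTGT each, the former in bases shared with the printed downstream promoter. Of 32851 RefSeq promoters of the same length, 16.0% hold CTTTGA, 18.7% hold CTTTGT and 31.2% hold at least one of them. These 2 searches cannot match the same letters, since they differ in the last base. A match is a description of the letters and not a binding site. The promoters differ in base composition. The G and C share is 43.0% at Bcl11b with 9 CG pairs, 76.7% with 45 at the upstream Satb1 promoter, 53.3% with 13 at the downstream one and 81.3% with 52 at Ikzf1, against medians of 52.7% and 7 over all promoters. The histone files are on mm9 and coordinates were not converted, so these sequences were not laid over islands.

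With 1 library per group and mark, no difference has a replicate check and no test was made. The deposited count of reads in each island is the measurement. For each pair of groups, islands overlapping by 1 bp or more were joined into regions. At regions with an island in both libraries, the log2 ratio of reads was centred on its genome-wide median, and a ratio of at least 2-fold (1 on the log2 scale) on either side was counted. Intervals, given in parentheses, are exact 95% intervals for counting error only, and reads come from PCR-amplified libraries without molecular identifiers. Reads outside islands are unknown, so a small island inside a wide region can overstate a ratio. In bulk chromatin, fewer cells that carry a mark and less of the mark per cell cannot be told apart. The comparisons share libraries and are therefore not independent.

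Across the libraries, islands held 248234 to 4025243 reads. WT CD8 libraries had lower read densities inside islands than the other groups for each mark. Before centring, the median read ratio of shared regions for DKO CD8 over WT CD8 was 1.06 for H3K4me3, 2.72 for H3K27ac and 1.71 for H3K9ac, and for WT CD4 over WT CD8 it was 1.61, 3.68 and 2.31. Dividing by total island reads instead of centring moves every H3K27ac ratio of DKO CD8 over WT CD8 up by 1.51 on the log2 scale, so each ratio below is relative to the median of its comparison. Markers of other cell types were not analysed here, since no mm9 gene annotation was used.

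H3K4me3, the promoter mark, placed 1 main region at each gene in all 3 groups. Below, the promoter of a gene means the place of this main region, since gene starts were not placed on mm9. At Bcl11b it was chr12:109237601-109243000, where WT CD8 had 89 reads, DKO CD8 124 and WT CD4 134. At Satb1 it was chr17:51970001-51973400, with 82, 97 and 165 reads in the same order. At Ikzf1 it was chr11:11584601-11588000, with 52, 80 and 95 reads in that order. WT CD8 had the fewest reads at each of the 3 regions. On the centred scale these differences stayed within 2-fold. DKO CD8 over WT CD8 gave 0.40 at Bcl11b, 0.16 (-0.27 to 0.61) at Satb1 and 0.54 (0.02 to 1.08) at Ikzf1. WT CD4 over WT CD8 gave -0.10, 0.32 and 0.18 in the same order. Both comparisons thus placed the main H3K4me3 region of each gene within 2-fold of the genome-wide median.

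Of the 11 H3K4me3 regions in the windows, 4 were called in all 3 groups, against 7.91% of all H3K4me3 regions. The fourth was a second Ikzf1 region, chr11:11590001-11592200, centred 4.80 kb from the first, where WT CD8 had 16 reads, DKO CD8 44 and WT CD4 25. DKO CD8 was the highest of the groups there, at 1.38 (0.53 to 2.31) over WT CD8 and 1.44 (0.70 to 2.21) over WT CD4. RefSeq lists a second Ikzf1 start 4.25 kb downstream of the first on GRCm38.p6. This region has under 50 reads in each library, which is outside the naming rule, and was named after its values were seen, as were the other regions below 50 reads that complete a count.

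Satb1 had a second H3K4me3 region as well, chr17:51950001-51953200, centred at -20.1 kb from the main one (negative distances run to lower coordinates). DKO CD8 had 65 reads there over 3.20 kb, WT CD4 had 44 over 1.60 kb, and WT CD8 had no island. DKO CD8 over WT CD4 was 1.18 (0.61 to 1.77). It took 36.9% (29.8 to 44.5) of the H3K4me3 island reads of the Satb1 window of DKO CD8 and 21.1% (15.7 to 27.2) of those of WT CD4. Of the 11 H3K4me3 regions it was the 1 called in DKO CD8 and WT CD4 but not in WT CD8, a pattern of 1.99% of all H3K4me3 regions. Satb1 is on the minus strand, and RefSeq lists starts 21.1 kb and 21.2 kb downstream of its first start on GRCm38.p6. The WT CD8 libraries had islands of both acetylation marks at this place, 141 reads of H3K27ac and 44 of H3K9ac.

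Counts of H3K4me3 regions past the fold were small. For DKO CD8 over WT CD8, 1 of 4 shared regions was higher and 0 lower, against 5.73% and 7.4% genome-wide. For WT CD4 over WT CD8, 0 of 4 were higher and 0 lower, against 6.09% and 8%. For DKO CD8 over WT CD4, 2 of 5 were higher and 0 lower, against 6.08% and 4.31%. The higher ones are the second Ikzf1 region in both comparisons with DKO CD8 and the second Satb1 region. The remaining H3K4me3 regions were called in 1 group each and held 13 to 24 reads. By width, the main Bcl11b island was in the top 1.63% of its list for WT CD8, 0.218% for DKO CD8 and 0.267% for WT CD4. The main Satb1 island was in the top 6.42%, 6.62% and 0.348% in the same order. The widest island of the main Ikzf1 region was in the top 11.4%, 0.786% and 2.90%.

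**Figure D1:**
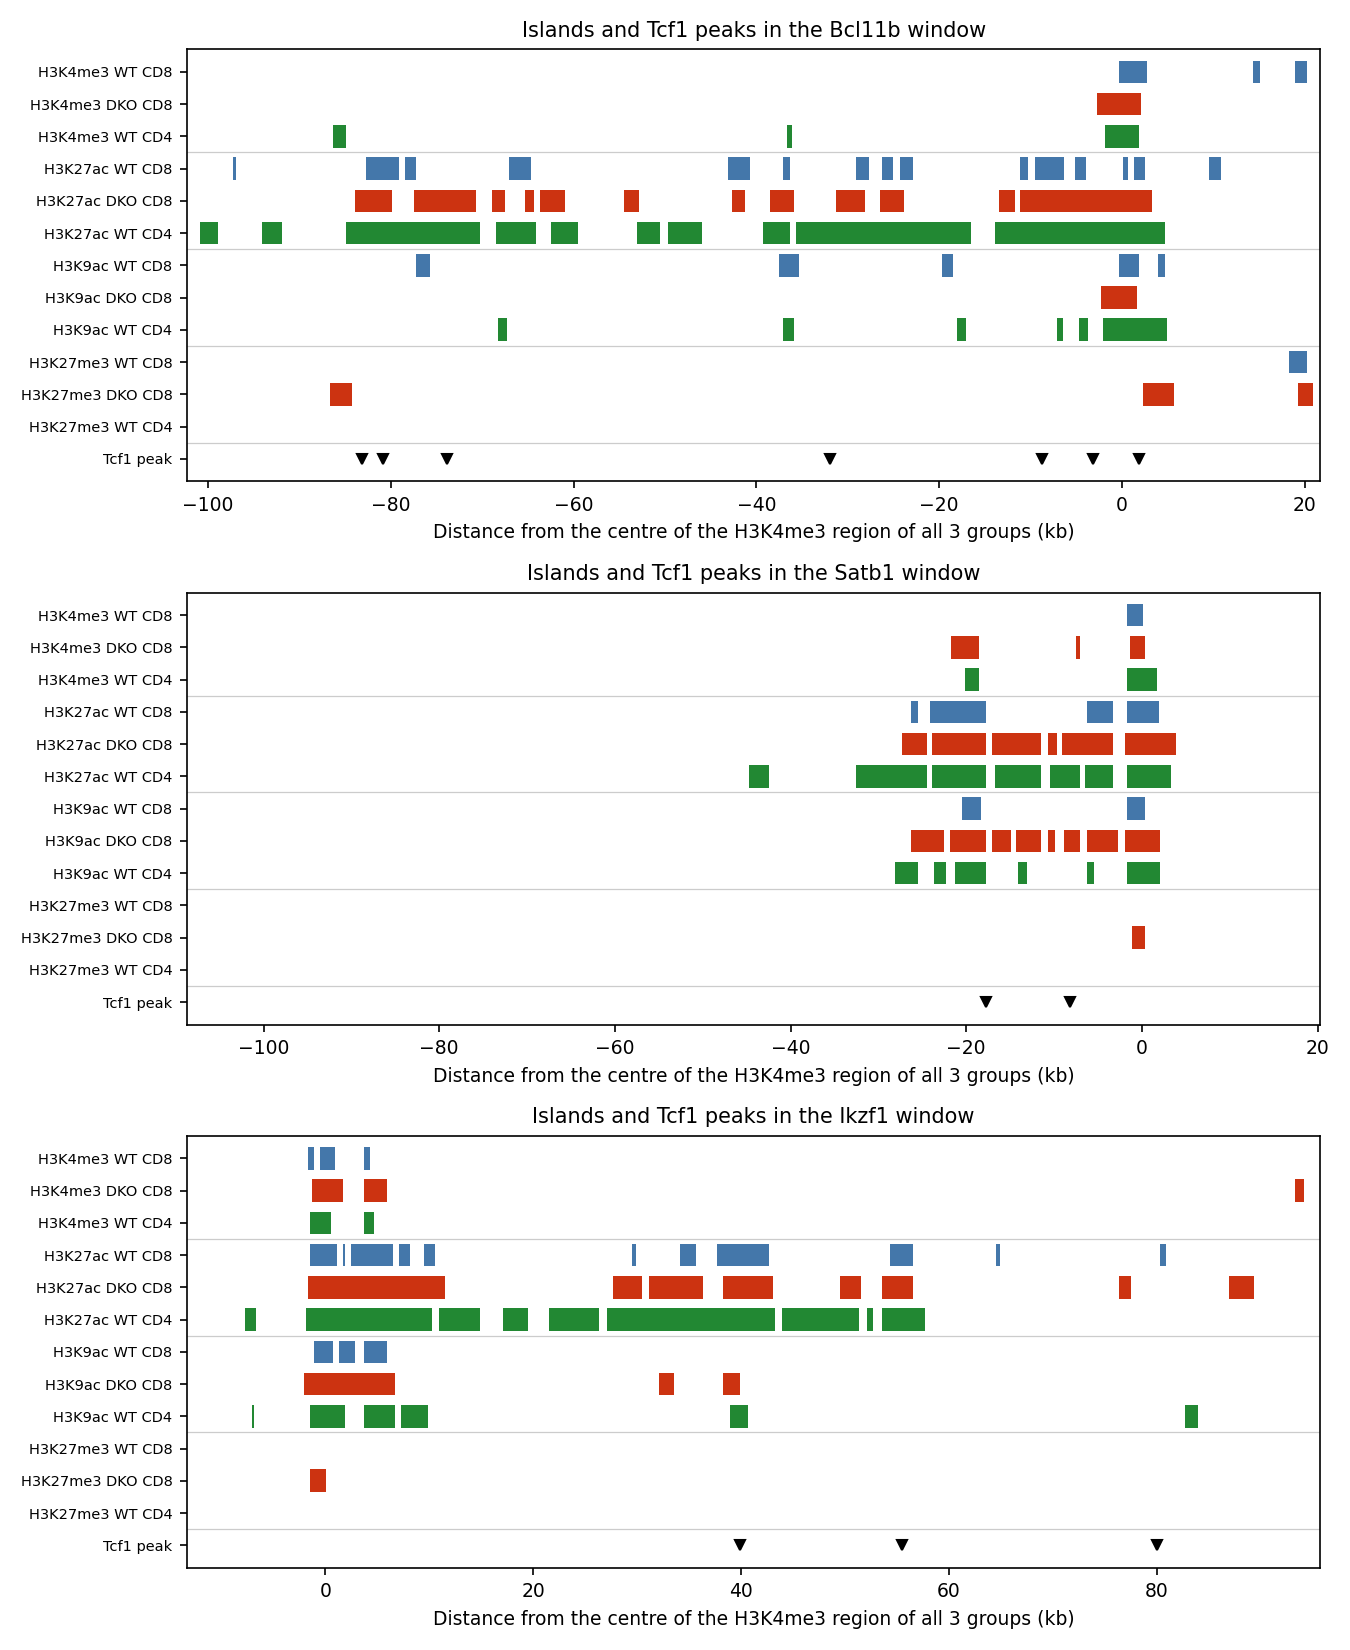
Islands of each mark and group (coloured bars) and Tcf1 peak centres (triangles) in the windows of the 3 genes, by distance in kb from the centre of the H3K4me3 region of all 3 groups. H3K27ac islands spread to the left of Bcl11b and Satb1 and to the right of Ikzf1, covering least in WT CD8. The H3K9ac islands of Satb1 in DKO CD8 run from just left of its second H3K4me3 region to the main one.

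H3K27ac covered much more of each window than H3K4me3 did. At Bcl11b the covered share of the window was 19.3% for WT CD8, 36.3% for DKO CD8 and 60.7% for WT CD4. At Satb1 the shares were 11%, 21.8% and 26.6%, and at Ikzf1 18.1%, 33.0% and 50.3%. The order WT CD8, DKO CD8, WT CD4 was the same at the 3 genes. Over the genome the order was another one, with 83.5 Mb covered for WT CD8, 59.1 Mb for DKO CD8 and 64.2 Mb for WT CD4. The reads behind these shares were 440, 1045 and 2321 at Bcl11b, 475, 2008 and 2139 at Satb1, and 518, 1446 and 2369 at Ikzf1. A sum over called islands moves with how much was called, so the density inside islands is given too. It was 19.0, 24.0 and 31.6 reads per kb at Bcl11b, 34.4, 73.8 and 64.4 at Satb1, and 27.3, 41.8 and 44.9 at Ikzf1. Over all H3K27ac islands it was 24.6, 33.1 and 39.1. Satb1 in DKO CD8 and WT CD4 held the densest H3K27ac of the windows, and Bcl11b lay below the density of all islands in each group.

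**Figure D2:**
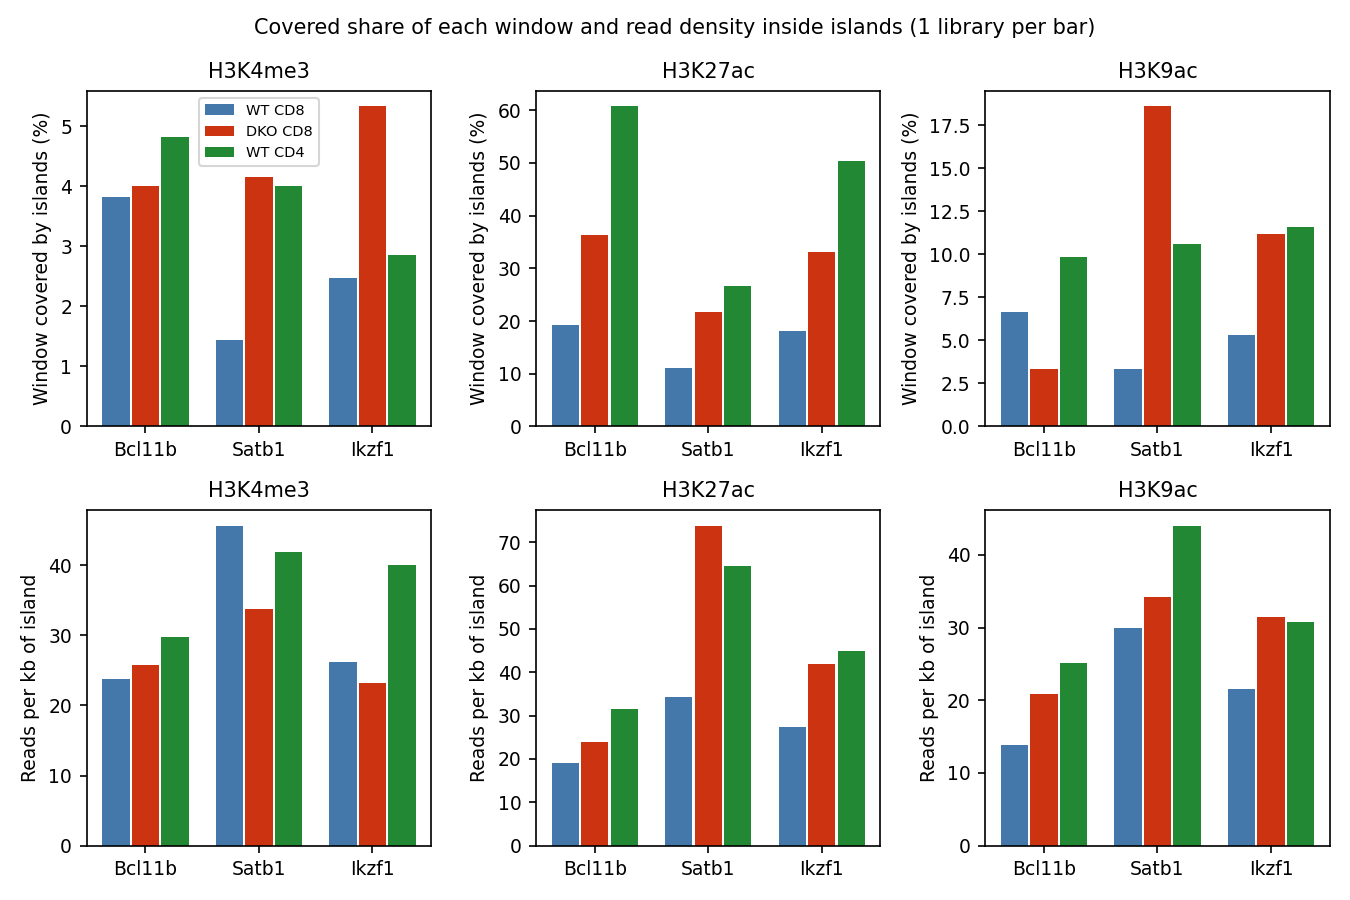
Percent of each window covered by islands (top) and deposited reads per kb of island (bottom) for H3K4me3, H3K27ac and H3K9ac, with 1 library per bar and a separate scale for each panel. H3K27ac cover is lowest in WT CD8 and highest in WT CD4 at each gene, while H3K9ac cover at Satb1 is highest in DKO CD8, at 18.6%.

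Some of these islands were among the widest of their lists. In DKO CD8, the H3K27ac island over the Bcl11b promoter was 14.4 kb wide and ranked 34 by width of 29636, and that over the Ikzf1 promoter was 13.2 kb wide and ranked 44 by width and 39 by reads. In WT CD4, Bcl11b had islands of 19.2 kb and 18.6 kb, ranked 33 and 36 by width of 24476, and Ikzf1 had one of 16.2 kb, ranked 55. At Bcl11b and Ikzf1 the widest WT CD8 islands were shorter, and at Satb1 the widest islands of WT CD8 and DKO CD8 were close, at 6.40 kb and 6.20 kb. The widest of WT CD8 were 3.6 kb at Bcl11b, 6.40 kb at Satb1 and 5 kb at Ikzf1, ranked 2802, 609 and 1505 by width of 56985. Where WT CD8 had 5 islands over the Bcl11b promoter region and 5 over that of Ikzf1, DKO CD8 had 1 at each.

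At the promoters, H3K27ac differed little between DKO CD8 and WT CD8 beyond the genome-wide shift. The Bcl11b promoter region, chr12:109229201-109243600, held 423 reads in DKO CD8 and 135 in WT CD8, a centred log2 ratio of 0.21 (-0.08 to 0.50). The Satb1 promoter region, chr17:51969801-51975600, held 751 and 252, a ratio of 0.13 (-0.07 to 0.35). The Ikzf1 promoter region, chr11:11584601-11597800, held 900 and 291, a ratio of 0.19 (-0.01 to 0.38). Each of the 3 intervals spans the median of the comparison and ends below the 2-fold line. For WT CD4 over WT CD8 the joined promoter regions had other bounds, so the values are not for the same bases. They were 0.80 (0.53 to 1.07) at Bcl11b, -0.23 (-0.43 to -0.02) at Satb1 and 0.01 (-0.18 to 0.20) at Ikzf1. The Bcl11b one, chr12:109226401-109245000, was 18.6 kb wide, against 14.4 kb for DKO CD8 over WT CD8.

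Of 17 shared H3K27ac regions, promoters included, 2 lay 2-fold or more above the median in DKO CD8 over WT CD8 and 4 lay as far below it, against 8.08% and 15.2% of all shared regions. The median ratio of the 17 was -0.03. The higher ones were 1 at Satb1 and 1 at Bcl11b, and the lower ones were all at Bcl11b. At Satb1, chr17:51962601-51968400 held 342 reads in DKO CD8 and 40 in WT CD8, a ratio of 1.65 (1.18 to 2.16). It lies between the main and the second H3K4me3 region and holds a Tcf1 peak and a small H3K4me3 island of DKO CD8, chr17:51964201-51964600, with 14 reads. With islands up to 1000 bp apart merged, the ratio was 1.06. Next to it, DKO CD8 had an island of 248 reads at chr17:51954601-51960200 and WT CD4 one of 164, where WT CD8 had none. That pattern, called in DKO CD8 and WT CD4 but not in WT CD8, was seen in 4 of 31 H3K27ac regions of the windows, against 8.03% of all H3K27ac regions.

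The Bcl11b values depend on how islands are joined. The higher region, chr12:109161801-109169600, held 165 reads in DKO CD8 and 17 in WT CD8, a ratio of 1.84 (1.11 to 2.65). Its left neighbour, chr12:109156401-109161200, held 102 and 95, a ratio of -1.34 (-1.76 to -0.92). In WT CD4 a single island of 590 reads covered both. When islands up to 1000 bp apart were merged, both fell into 1 region with a ratio of -0.18, so neither call held. The whole stretch, chr12:109155401-109170000, took 25.5% (21.4 to 29.8) of the H3K27ac island reads of the Bcl11b window for WT CD8, 25.6% (22.9 to 28.3) for DKO CD8 and 25.4% (23.7 to 27.2) for WT CD4. Its share of the locus was therefore nearly equal in the 3 groups. It is centred at -77.6 kb from the H3K4me3 region, which is downstream for a gene on the minus strand, and it holds 3 of the 7 Tcf1 peaks of the window.

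The other lower Bcl11b regions had few reads. At chr12:109173201-109176000 the counts were 21 in DKO CD8 and 30 in WT CD8, a ratio of -1.96 (-2.83 to -1.10) that was -0.02 after merging islands up to 1000 bp apart. At chr12:109197201-109199600 they were 27 and 31, a ratio of -1.64 (-2.44 to -0.85), and WT CD4 had no island. At chr12:109213801-109217400 they were 57 and 46, a ratio of -1.13 (-1.72 to -0.54). Raw reads in these places were similar in both libraries, while the median shared region had 2.72 times as many in DKO CD8. Scaled by total island reads, none of the 4 stayed 2-fold lower, and chr12:109156401-109161200 and chr12:109213801-109217400 turned to 0.17 and 0.38.

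Ikzf1 had no H3K27ac region past the fold between DKO CD8 and WT CD8. Its 5 shared regions ranged from -0.93 to 0.94. The lowest, chr11:11624001-11629400, held 197 reads in DKO CD8 and 138 in WT CD8 (-0.93, -1.25 to -0.60) and carries the Tcf1 peak with the highest score of the 3 windows. The highest was its left neighbour chr11:11617401-11622600, with 120 and 23 reads (0.94, 0.29 to 1.65). Neighbouring pieces of this one locus thus lay on opposite sides of the median.

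**Figure D3:**
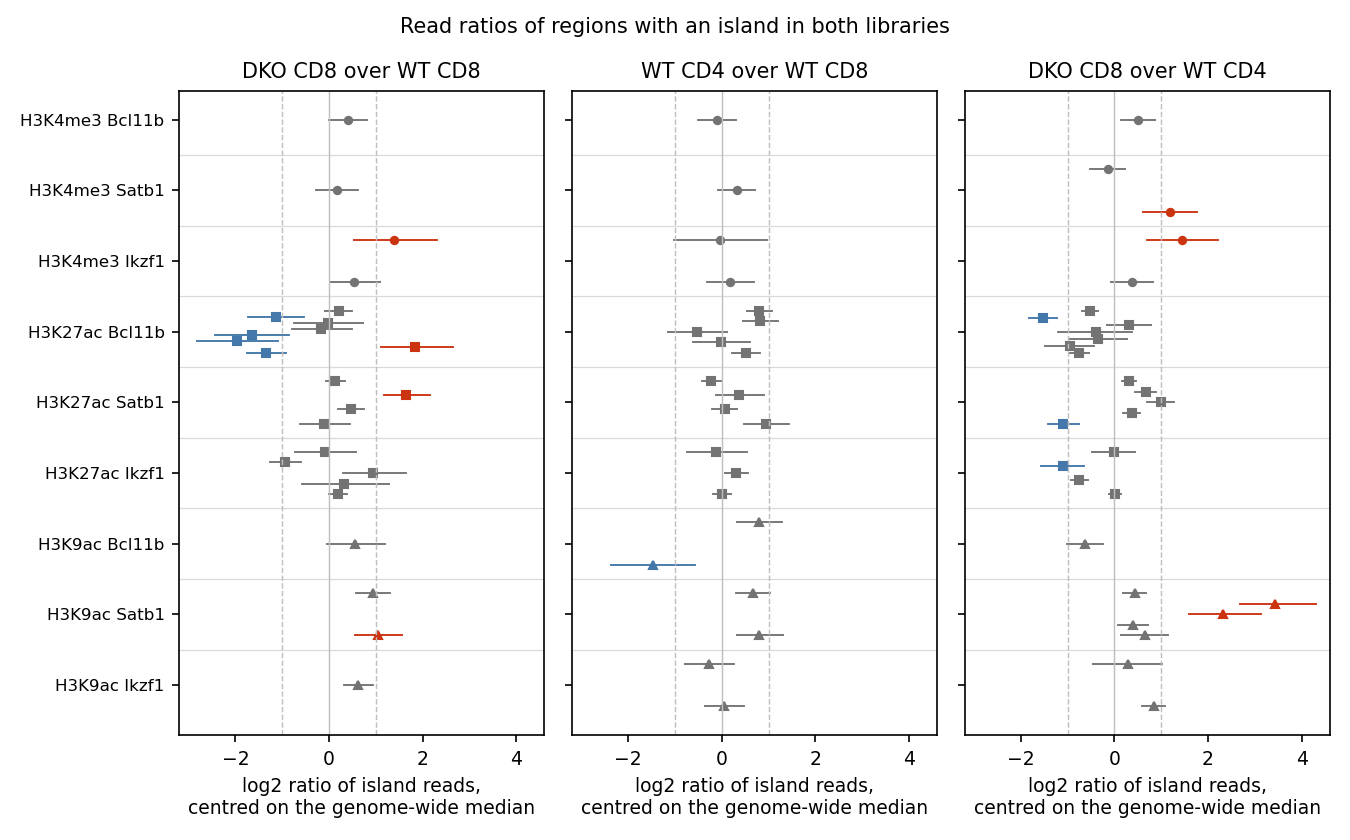
Centred log2 ratios of island reads with 95% counting intervals for each region that has an island in both libraries, by mark and gene, for the 3 comparisons. Red points are at least 2-fold higher and blue points at least 2-fold lower (dashed lines), and within a row regions run by position from the bottom up. The highest point is a Satb1 H3K9ac region at 3.44 in DKO CD8 over WT CD4.

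Between the wild-type groups, 0 of 12 shared H3K27ac regions were 2-fold higher in WT CD4 and 0 lower, against 6.3% and 13.5% genome-wide. The ratios ranged from -0.53 to 0.94, with the highest at Satb1 chr17:51939201-51947200, where WT CD4 had 296 reads and WT CD8 42. Between DKO CD8 and WT CD4, 0 of 16 were higher and 3 lower, against 4.3% and 7.25%. The lower ones were 1 at each gene. At Bcl11b, chr12:109204601-109223800 held 118 reads in DKO CD8 and 447 in WT CD4, a ratio of -1.53 (-1.83 to -1.23), and -1.06 after merging islands up to 1000 bp apart. At Ikzf1, chr11:11630201-11637800 held 55 and 155, a ratio of -1.10 (-1.57 to -0.65) that was -0.83 after merging. At Satb1, chr17:51939201-51947200 held 106 and 296, a ratio of -1.09 (-1.42 to -0.76) that turned to 0.33 once merged with its neighbours.

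Of 31 H3K27ac regions, 12 were called in all 3 groups, against 12.4% genome-wide, and 8 in WT CD4 only, against 8.19%. Of the regions called in WT CD4 only, 4 were at Ikzf1, 3 at Bcl11b and 1 at Satb1. The strongest were chr11:11607801-11612600 at Ikzf1 with 73 reads and chr12:109190601-109194400 at Bcl11b with 64. At Ikzf1 chr11:11630201-11637800, WT CD4 had 155 reads and DKO CD8 55, where WT CD8 had no island.

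For H3K9ac, the covered share of the window spanned 3.36% to 18.6% between groups at Satb1, 3.33% to 9.83% at Bcl11b and 5.33% to 11.6% at Ikzf1. At Satb1, DKO CD8 had 8 H3K9ac islands with 794 reads over 23.2 kb, WT CD4 had 6 with 581 reads over 13.2 kb, and WT CD8 had 2 with 126 reads over 4.20 kb. At Ikzf1, DKO CD8 had 372 reads, WT CD4 375 and WT CD8 121. At Bcl11b the read sum was lowest in DKO CD8, with 83 reads in 1 island, 296 in 6 for WT CD4 and 111 in 5 for WT CD8. The WT CD8 islands there that DKO CD8 lacked held 15 to 25 reads each. Per kb of island, Bcl11b had 20.8 reads in DKO CD8, 25.1 in WT CD4 and 13.9 in WT CD8. The series-wide totals frame these counts: H3K9ac islands covered 11.5 Mb for DKO CD8, 45.6 Mb for WT CD4 and 13.5 Mb for WT CD8. DKO CD8 thus had the widest H3K9ac cover of the 3 groups at Satb1, although its cover over the genome was the smallest.

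At the Satb1 promoter region chr17:51969801-51973800, WT CD8 had 82 H3K9ac reads, DKO CD8 268 and WT CD4 299. DKO CD8 over WT CD8 was 0.93 (0.57 to 1.31), just inside the fold. At the second H3K4me3 place, chr17:51949801-51954000, reads were 44, 155 and 177, and DKO CD8 over WT CD8 was 1.04 (0.55 to 1.56), just past it. The side of the fold depends on the setting. With the median over regions of at least 50 reads the ratios were 0.64 at the promoter and 0.74 at the second place, by total island reads 1.53 and 1.64, and with islands up to 1000 bp apart merged 1.63 and 2.24. The second place was the 1 higher region of 4 shared, with 0 lower, against 3.95% and 3.56% genome-wide. WT CD4 over WT CD8 was 0.66 and 0.80 at the same places, and -0.23 and -0.08 by total island reads.

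Between the promoter and the second place DKO CD8 had 5 further H3K9ac islands and WT CD8 none. Going left from the promoter, chr17:51965401-51969000 held 116 reads in DKO CD8 over 3.6 kb and 16 in WT CD4 in an island of 0.8 kb. Its ratio of DKO CD8 over WT CD4 was 3.44 (2.68 to 4.30), rank 1 of 4579 shared regions. The width of the WT CD4 island can raise this value, since WT CD4 reads outside it are unknown. At chr17:51957401-51960200 the counts were 67 over 2.80 kb and 20 over 1 kb, a ratio of 2.33 (1.59 to 3.13), rank 6. Merging islands up to 1000 bp apart joined these with the stronger neighbours and gave 1.06 and 1.02, still past the fold. The other 3, at chr17:51962801-51964600 with 52 reads, chr17:51954601-51956800 with 43 and chr17:51961001-51961800 with 21, were called in DKO CD8 only.

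The shares within the Satb1 window do not depend on scaling between libraries, though they do depend on what was called. The region next to the promoter, chr17:51965401-51969000, took 14.6% (12.2 to 17.3) of the H3K9ac island reads that DKO CD8 had in the window and 2.75% (1.58 to 4.43) of those of WT CD4. The promoter region took 65.1% (56.1 to 73.4) for WT CD8, 33.8% (30.5 to 37.2) for DKO CD8 and 51.5% (47.3 to 55.6) for WT CD4. The H3K27ac region chr17:51961001-51968400 overlaps the one next to the promoter but is wider and reaches further left. It took 8.42% (6.08 to 11.3) for WT CD8, 18.5% (16.8 to 20.3) for DKO CD8 and 14.4% (12.9 to 16.0) for WT CD4 of the H3K27ac island reads of the window. No island of any library was called in the Satb1 window to the left of chr17:51927001, so its left part carried no called mark.

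**Figure D4:**
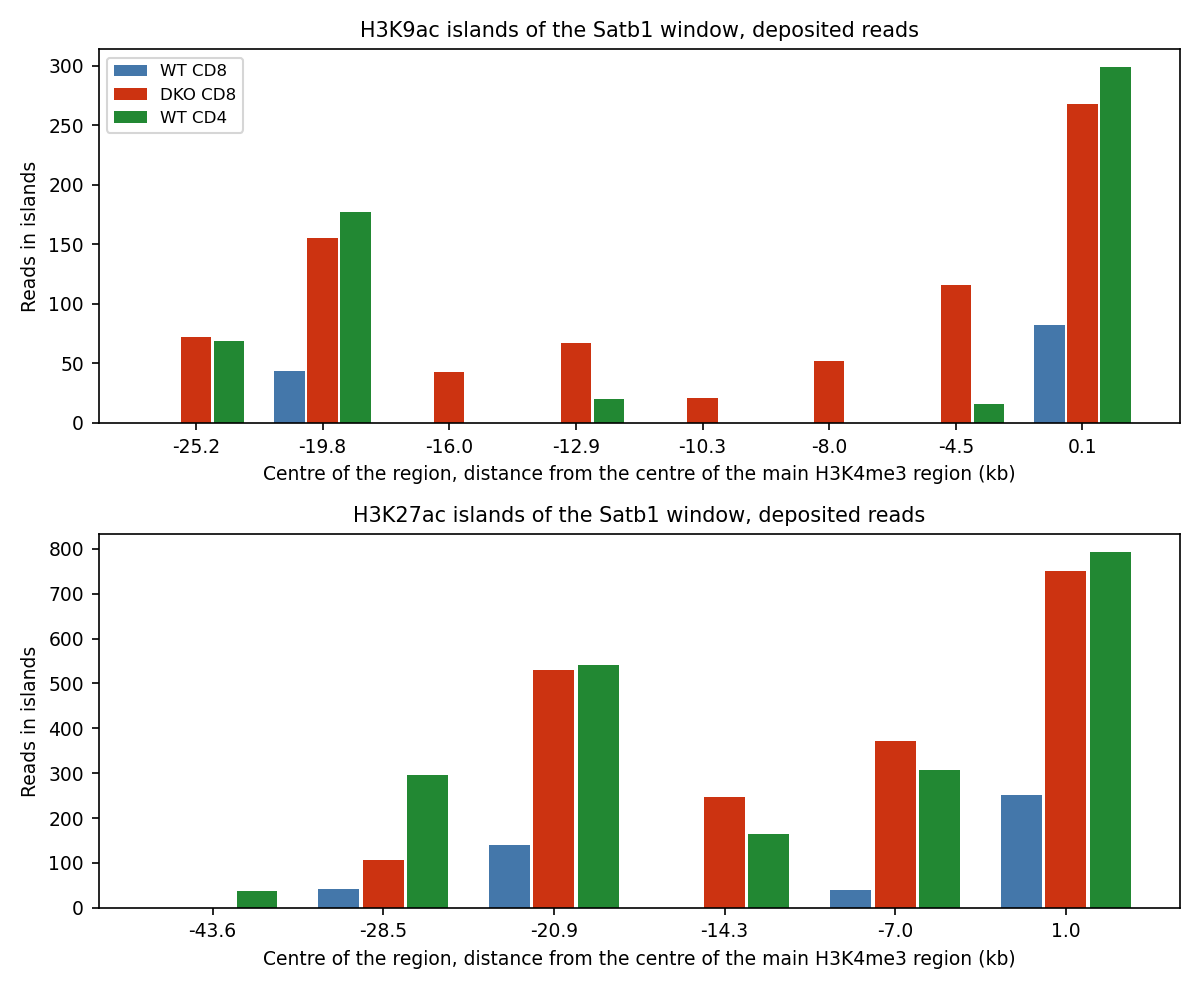
Deposited reads in H3K9ac (top) and H3K27ac (bottom) islands of the Satb1 window, by region and group, ordered by distance in kb from the centre of the main H3K4me3 region (regions are not drawn to scale along the axis; no bar means no island). DKO CD8 bars fill the H3K9ac regions between -16.0 and -4.50 kb, where WT CD8 has none.

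Across the windows, 4 of 22 H3K9ac regions were called in all 3 groups (6.84% genome-wide), 4 in DKO CD8 only (4.56%), 4 in both DKO CD8 and WT CD4 (4.71%) and 7 in WT CD4 only (66.1%). Each of the 2 kinds with DKO CD8 but without WT CD8 had 3 regions at Satb1 and 1 at Ikzf1. Bcl11b had neither kind. It held the 2 regions called in WT CD8 only (13.2% genome-wide). It also held the 1 region called in both wild-type groups but not in DKO CD8, a pattern whose genome-wide share was not computed. For DKO CD8 over WT CD4, the 2 Satb1 regions above were the higher ones of 8 shared, with 0 lower, against 6.07% and 3.41%. For WT CD4 over WT CD8, 0 of 6 were higher and 1 lower, against 6.17% and 11.4%. The lower one was chr12:109202801-109205000 at Bcl11b, with 21 reads in WT CD4 and 25 in WT CD8, a ratio of -1.46 (-2.37 to -0.56), and DKO CD8 had no H3K9ac island there.

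The Ikzf1 promoter region held 100% of the H3K9ac island reads of the window for WT CD8, 85.5% (81.5 to 88.9) for DKO CD8 and 71.2% (66.3 to 75.7) for WT CD4. In DKO CD8 a single island, chr11:11584201-11593000, was 8.80 kb wide with 318 reads, rank 12 by width and 7 by reads of 6516. WT CD8 had 121 reads there in 3 islands and WT CD4 267 in 2. DKO CD8 was at 0.62 (0.31 to 0.93) over WT CD8 and 0.84 (0.60 to 1.08) over WT CD4. An H3K9ac region at chr11:11624601-11627000, under the Tcf1 peak with the highest score, held 30 reads of DKO CD8 and 37 of WT CD4, and WT CD8 had no island there. At the Bcl11b promoter, DKO CD8 had 83 reads in 1 island, WT CD8 48 in 2 and WT CD4 192 in 1. DKO CD8 over WT CD8 was 0.56 (-0.04 to 1.19), from the 33 WT CD8 reads of the overlapping island, and DKO CD8 over WT CD4 was -0.62 (-1.01 to -0.25). Bcl11b was the gene of the 3 where DKO CD8 lay below WT CD4 in promoter H3K9ac on the centred scale, a direction that flips to 0.70 by total island reads.

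The 4 H3K4me3 regions of all 3 groups carried both acetylation marks in each group. For H3K27ac this holds for 80.5% of all such regions with WT CD8 islands, 97.1% with those of DKO CD8 and 97.2% with those of WT CD4, and for H3K9ac for 52.6%, 60% and 93.7%.

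H3K27me3, the Polycomb mark, was scarce in these windows. WT CD8 had 1 island with 30 reads, at the right edge of the Bcl11b window, DKO CD8 had 5 islands with 237 reads in all, and WT CD4 had none. Of 5 regions, 4 were called in DKO CD8 only, against 12% of all H3K27me3 regions. At Satb1 the DKO CD8 island, chr17:51970601-51972000, held 36 reads, and its whole 1400 bp lay inside the H3K4me3, H3K27ac and H3K9ac islands of the same cells. At Ikzf1, chr11:11584801-11586400 held 30 reads, and 1400 of its 1600 bp lay inside the H3K4me3 island. At Bcl11b, chr12:109242601-109246000 held 86 reads and began 200 bp beyond the DKO CD8 H3K4me3 island, and chr12:109153601-109156000 held 47 reads 81.6 kb from it. Each gene thus had a DKO CD8 H3K27me3 island at or next to its promoter mark.

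By reads, the DKO CD8 islands at Satb1 and Ikzf1 ranked 17278 and 20262 of 23933, in the lower part of their list, and the one next to the Bcl11b promoter ranked 7461. With only islands above their list's median reads, the regions called in DKO CD8 and not in WT CD8 went from 4 to 1, and the region shared by both was lost. At 3 of the 4 H3K4me3 regions of all 3 groups a DKO CD8 H3K27me3 island was present, against 12.4% of all such regions, and at 0 of 4 one of WT CD8 (4.19%) or WT CD4 (7.61%). When the H3K27me3 island had to share bases with the H3K4me3 island of DKO CD8 itself, the count was 2 of 4, against 11.9%. A place without an island has an unknown number of reads, so no ratio is given for these regions. The fifth region, at the right edge of the Bcl11b window, held 38 reads in DKO CD8 and 30 in WT CD8, a ratio of -0.82 (-1.55 to -0.08). With the windows widened on both sides to 2 times their length, H3K27me3 reads were 431 for WT CD8, 335 for DKO CD8 and 268 for WT CD4, so the scarcity in the wild-type groups holds for the windows and not for their flanks. Bulk libraries do not show whether both marks were on the same chromosome copies or in different cells.

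The density of Tcf1 peaks of splenic CD8 cells was 58.3 per Mb at Bcl11b, 16.0 at Satb1 and 28.6 at Ikzf1. It was 3.02 over the span of the islands on all chromosomes. That span, 2581 Mb, is not matched to the windows for active marks. Of all Tcf1 peaks, 74.8% overlapped H3K27ac islands of DKO CD8, which cover 59.1 Mb. The score is the authors' own value per peak, from 50 up to 477.81, with a median of 76.41. At Ikzf1, the peak chr11:11625825-11626634 had a score of 235.65, rank 351 of 7807, and lay 39.9 kb to the right of the H3K4me3 centre. The next, chr11:11641583-11642045, had 129.51 at 55.5 kb, and the last, chr11:11666158-11666479, had 57.07 and lay in no island of any library. None of the Ikzf1 peaks overlapped an H3K4me3 island of any group.

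At Bcl11b, the highest peak, chr12:109231282-109231831, had a score of 181.11, rank 668, and lay at -8.74 kb from the H3K4me3 centre. The peak chr12:109241841-109242587, with a score of 101.22, was the 1 peak of the 12 that overlapped H3K4me3 islands, and it did so in each group. It lay wholly inside the WT CD8 island and ran past the right end of the DKO CD8 and WT CD4 islands. Also near the promoter, chr12:109236947-109237274, had 92.69. The distal stretch at -77.6 kb held peaks of 78.06 at chr12:109159122-109159758, 76.41 at chr12:109166248-109166562 and 58.67 at chr12:109156991-109157302, and chr12:109208305-109208587 between them and the promoter had 51.94. The 2 Satb1 peaks were low, 62.09 at chr17:51963412-51963721 and 53.18 at chr17:51953763-51954057. Both lie in the stretch with H3K9ac islands in DKO CD8, and the former falls in an H3K9ac island of DKO CD8 but of neither wild-type group.

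A peak was counted as held by an island when they overlapped by 1 bp or more. H3K27ac islands held 6 of the 12 peaks for WT CD8, 10 for DKO CD8 and 11 for WT CD4, against 55.8%, 74.8% and 81.5% of all Tcf1 peaks. H3K9ac islands held 1, 4 and 3 of the 12, against 23%, 28.5% and 49.6%. H3K4me3 islands held 1 in each group, against 34.5%, 35.5% and 41.6%, and H3K27me3 islands held none, against 3.34%, 7.71% and 5.73%. The peaks are from splenic wild-type cells and the islands from thymocytes, and whether Tcf1 bears on the marks at these positions was not tested. Of the 4 H3K4me3 regions of all 3 groups, 1 held a Tcf1 peak, against 37.7%. The shares for H3K27ac were near those of all peaks.

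**Figure D5:**
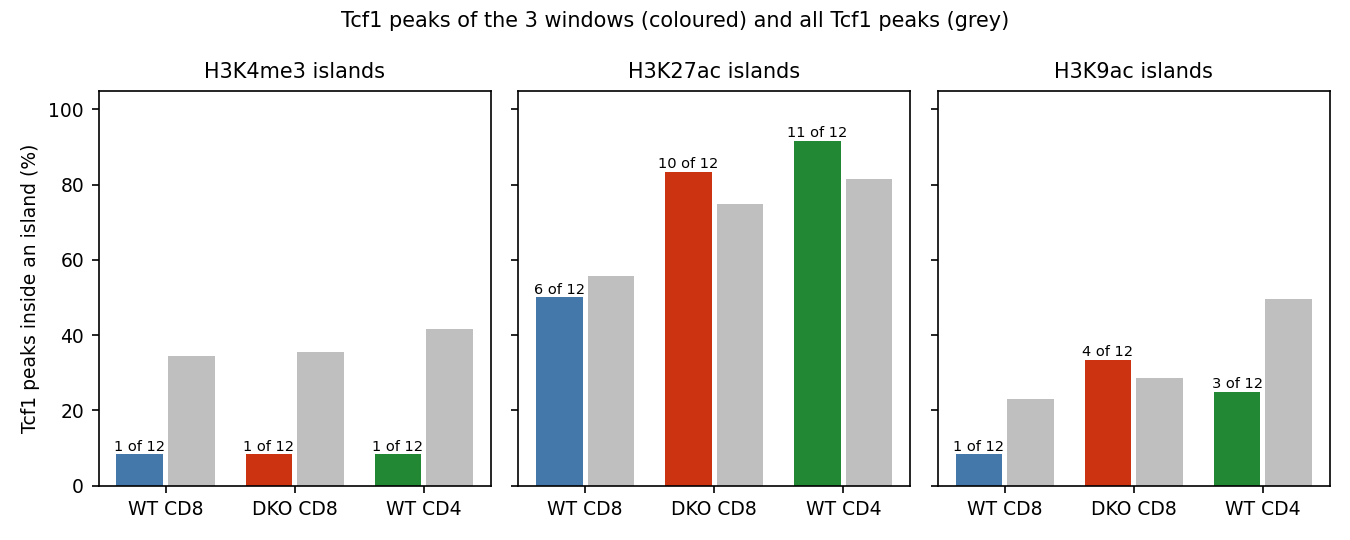
Percent of the 12 Tcf1 peaks of the windows (coloured by group) and of all 7807 Tcf1 peaks (grey) that overlap islands of H3K4me3, H3K27ac or H3K9ac of each thymocyte group by 1 bp or more. H3K4me3 islands hold 1 of the 12 in each group, and H3K27ac islands hold 6, 10 and 11.

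Pooled over the 4 marks, DKO CD8 and WT CD8 had 26 regions in common, DKO CD8 had 24 of its own (27% genome-wide) and WT CD8 had 10 of its own (57%). WT CD4 and WT CD8 had 22 in common, with 29 of WT CD4 alone (37.9%) and 10 of WT CD8 alone (47.1%). DKO CD8 and WT CD4 had 29 in common, with 14 of DKO CD8 alone (24.7%) and 18 of WT CD4 alone (48.8%). Each percentage is of all regions called in either library of the pair. Genome-wide, regions in common made up 13.2% to 20.8% by mark for DKO CD8 and WT CD8. They made up 11.8% to 17.9% for WT CD4 and WT CD8, and 13.3% to 45.0% for DKO CD8 and WT CD4. Pooled this way, WT CD8 had fewer regions of its own than DKO CD8 or WT CD4 in the windows, and more over the genome. That did not hold for each gene or mark. At Bcl11b against DKO CD8, WT CD8 had 2 H3K4me3 regions of its own against 0, with 59.5% against 27.3% genome-wide. For H3K9ac it had 4 against 0 (51.8% against 27.4%), so for both marks the order was that of the genome. For H3K27ac it had 2 against 4 there (60.4% against 24.7%), and for H3K27me3 0 against 2 (50.1% against 30.4%). Over the genome, WT CD4 alone exceeded WT CD8 alone for H3K9ac (74.2% against 14.0%) and H3K27me3 (42.2% against 39.9%), but not otherwise.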

How the data were processed

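The series holds 17 samples, of which 12 histone libraries and 1 Tcf1 peak list gave the 13 files used. Neither the 3 inputs nor the Tcf1-/- control library were analysed here by themselves. Per the submitters' processing notes, the tools were SICER 1.1, MACS 1.4.2, Bowtie2 2.2.5 and FastQC and the build was mm9, without a role for each. The island values are deposited read counts, whole and not normalized, on a 200 bp grid. The Tcf1 values are a deposited score, with a minimum of 50. How many reads each library had in total is not given in the sources used here. Starts were moved to 1-based positions. Groups came from the sample titles, with 1 library per group and mark.

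Islands that overlap a window were taken whole. Regions were merged at an overlap of 1 bp or more, and ratios were centred on the median of all shared regions. Intervals are exact Clopper-Pearson at 95%. Merging and ratios were tested on simulated data and against bedtools 2.31.1. Computation used Python 3.11.15, numpy 2.4.6, SciPy 1.17.1 and matplotlib 3.10.9.

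Regions named were, for each window, mark and comparison, the shared region with the most reads, each shared region past 2-fold whose higher library had 50 reads or more, and the region of a single library with the most reads, of which the text gives the main ones. All Tcf1 peaks were named. The members and windows were chosen with earlier results of these data known. Other genes of the pathway, and markers that would check the labelled cells and the deletion of Tcf1 and Lef1, were not analysed here, because the gene table used is of another build.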

Additional observations from a re-analysis of the deposited data

How the results depend on the processing

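No paired analysis was possible because each group has 1 library per mark. For the same reason no library could be left out. Of 77 shared regions, 16 were past 2-fold. In the same direction, 12 were still past it when scaled by total island reads, 15 when the median was taken over regions with at least 50 reads, and 11 with islands up to 1000 bp apart merged. The ones that turned were Bcl11b chr12:109156401-109161200 (0.17) and chr12:109213801-109217400 (0.38) under total island reads, and Bcl11b chr12:109161801-109169600 (-0.18) for DKO CD8 over WT CD8 and Satb1 chr17:51939201-51947200 (0.33) for DKO CD8 over WT CD4 under merging.

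Over all marks, DKO CD8 over WT CD8 had 4 regions higher and 4 lower. These were 2 and 2 at 3-fold, 19 and 0 by total island reads, and 2 lower with at least 50 reads. WT CD4 over WT CD8 had 0 higher and 1 lower. By total island reads these were 14 and 2, and the lower count was 0 at 3-fold or with at least 50 reads. DKO CD8 over WT CD4 had 4 higher and 3 lower, which were 2 and 0 at 3-fold, and 9 higher by total island reads. The counts of regions past the fold therefore depend on the scaling, and the share of higher calls with it.

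Trimming lists to equal covered length left 5 regions called in WT CD8 alone against DKO CD8. With only islands above their list's median reads, DKO CD8 had 15 regions that WT CD8 lacked and WT CD8 had 4 that DKO CD8 lacked. Under the same setting WT CD4 had 15 against WT CD8, which had 3, and DKO CD8 had 5 against WT CD4, which had 7.

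Windows widened on both sides to 2 times their length held 399, 483 and 601 H3K4me3 reads for WT CD8, DKO CD8 and WT CD4, where the windows themselves held 273, 439 and 502. H3K27ac reads were 2127, 5386 and 8227, and H3K9ac reads in WT CD4 were 1358. H3K27me3 reads were 431, 335 and 268, against 30, 237 and 0 in the windows, so the order of the groups for this mark rests on where the windows end. When islands had to cover at least 50% of a Tcf1 peak, the peaks in islands were 0 for H3K4me3 of WT CD4, 0 for H3K9ac of WT CD8 and 2 for H3K9ac of DKO CD8. Of the 6 peaks above the median score, 6 lay in H3K27ac islands of DKO CD8, 6 in those of WT CD4 and 2 in H3K9ac islands of DKO CD8. The low read counts of many islands, and reads outside islands that are unknown, limit each value.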
